A study of Mus musculus with 4 samples.

Results

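Cyp4a14, Cyp4a31, Acot1 and Abcd2 are 4 mouse genes of fatty acid hydroxylation, acyl-CoA hydrolysis and peroxisomal fatty acid import, described here in liver of mice with both cytochrome b5 genes targeted and of control mice. They were named by symbol from the genes of 2 deposited tables, one for fasted and one for refed liver, and are 4 of 943 genes in the 2 tables together. They were selected on their measured values, being in the refed table and having large TPM differences between feeding states, so the values below describe them and carry no test. All 4 members are in the refed table, and of the 4 only Abcd2 is also in the fasted table.

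Total liver RNA was sequenced in 4 groups of 1 library each. The group L_Cyb5b_shCyb5a Refed carries the labels liver Cyb5b and shCyb5a, read here as a hairpin against Cyb5a, and comes from refed mice. WT_shNC Refed is wild-type liver with the hairpin labelled shNC, also from refed mice. L_Cyb5b_shCyb5a Fasted and WT_shNC Fasted are the same genotypes in the fasted state. Every group thus carries a hairpin label, the controls too. The allele behind "L", the vector of the hairpins, strain, sex, age, the number of mice behind a library and the lengths of fasting and refeeding are not given here by any label. With 1 library a group there is no replicate check on any difference, and every range after a fold or level is a 95% interval for counting error only.

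Omega oxidation begins in the endoplasmic reticulum, where P450 enzymes of the Cyp4a family put a hydroxyl group on the methyl end of a fatty acid, and the dicarboxylic acids made from it are shortened in peroxisomes. Peroxisomes also take the very-long-chain fatty acids that mitochondria handle poorly, and carry them in as CoA esters through transporters of the ABCD family. In liver, fasting releases fatty acids that activate the nuclear receptor PPARa, and PPARa with its partner RXR switches on many of these genes. Cyp4a14 and Cyp4a31 are members of that P450 family, Acot1 is a cytosolic enzyme that splits long-chain acyl-CoA into fatty acid and CoA, and Abcd2 is a transporter of the peroxisomal membrane. Abcd2 is therefore the one member that is itself peroxisomal, and the term "Peroxisome" in the authors' deposited tables is attached to it and to Acox2 alone among the listed genes.

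Several members have close relatives, and reads from shared sequence cannot be assigned to one gene. In RefSeq GRCm38.p6, Cyp4a14 (gene ID 13119) and Cyp4a31 (gene ID 666168) lie on chromosome 4 in the order Cyp4a12b, Cyp4a30b, Cyp4a14, Cyp4a10, Cyp4a31, Cyp4a32, Cyp4b1. Acot1 (gene ID 26897) lies on chromosome 12 between Acot2 and Acot4, and Abcd2 (gene ID 26874) on chromosome 15 between Gm52215 and CN725425. The coding sequence of Cyp4a31 is 96.0% identical to that of Cyp4a32 and 96.6% to that of Cyp4a10, but 74.8% to that of Cyp4a14. Acot1 is 85.5% identical to Acot2 over 1383 aligned columns, of which 144 are gaps and 56 are substitutions. Abcd2 is 48.0% identical to Abcd3, another peroxisomal transporter. The windows of 60 coding bases below are from GENCODE M21 transcripts. They begin at the middle of the coding sequence of Cyp4a31 or Acot1 and were not picked by likeness. They show how little separates the relatives there, and how Cyp4a14 differs in the same place.

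The first group is set against Cyp4a31, coding bases 766 to 825, and the Cyp4a14 window is its coding bases 760 to 819. Capitals mark bases that differ from Cyp4a31.
Cyp4a31: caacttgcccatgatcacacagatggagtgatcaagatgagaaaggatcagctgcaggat
Cyp4a32: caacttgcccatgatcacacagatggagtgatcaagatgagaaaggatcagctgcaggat
Cyp4a10: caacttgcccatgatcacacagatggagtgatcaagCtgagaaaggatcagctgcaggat
Cyp4a14: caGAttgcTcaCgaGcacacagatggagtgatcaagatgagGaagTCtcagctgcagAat
In this window Cyp4a32 has 0 differences, Cyp4a10 has 1 and Cyp4a14 has 9.

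The second pair is Acot1, coding bases 631 to 690, and Acot2, coding bases 754 to 813, with capitals for bases that differ.
Acot1: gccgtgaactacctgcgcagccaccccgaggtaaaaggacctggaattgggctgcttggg
Acot2: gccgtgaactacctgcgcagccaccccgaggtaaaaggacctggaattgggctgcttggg
There are 0 differences in this window, so a read that lies inside it could come from either gene.

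Across whole transcripts, the share of windows that recur exactly in another gene separates the members into 2 with near-private sequence and 2 without. At a window of 100 bases it is 0% for Cyp4a14 and Abcd2, 8.22% for Cyp4a31 and 21.9% for Acot1. Cyp4a31 shares such windows with Cyp4a32 and Cyp4a10, and Acot1 shares most of its own with Acot2 (16.5%). At 50 bases the shares are 0.245% for Cyp4a14, 0.474% for Abcd2, 21.8% for Cyp4a31 and 33.6% for Acot1. Neither the read length nor the treatment of reads with several matches is given in the sources used here. The levels of Cyp4a31 and Acot1 may hold reads of these relatives, none of which is in either table.

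**Figure D1:**
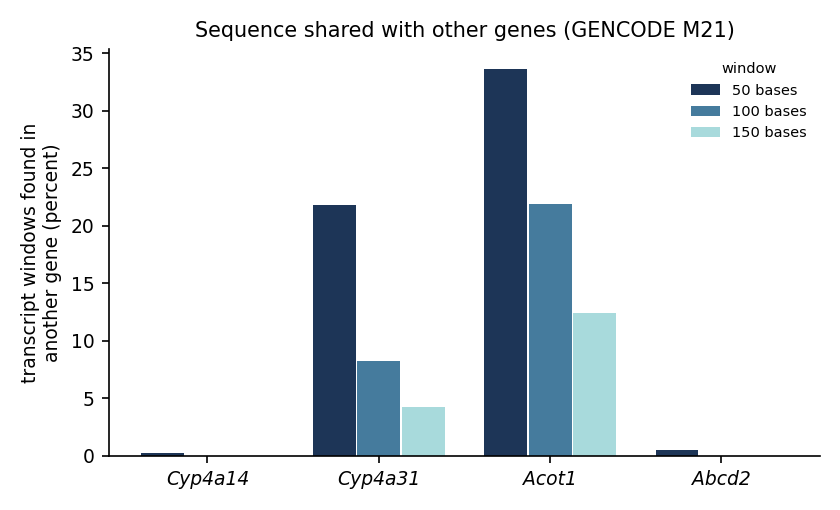
Percent of all windows of 50, 100 and 150 bases along each member's transcript (y axis) that occur exactly in a transcript of another gene in GENCODE M21, by member (x axis). Cyp4a14 and Abcd2 stay below 0.5% at every length, while Acot1 has 12.4% and Cyp4a31 4.19% at 150 bases.

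Of the 4 promoters, that of Acot1 is in the RefSeq promoter table, and it is shown because Acot1 is among the genes with the largest feeding differences below. It is the plus strand of chr12:84009252-84009551 in GRCm38.p6, from 250 bases before the start of transcription to 50 after it, and capitals mark a CCAAT box.
Acot1 promoter: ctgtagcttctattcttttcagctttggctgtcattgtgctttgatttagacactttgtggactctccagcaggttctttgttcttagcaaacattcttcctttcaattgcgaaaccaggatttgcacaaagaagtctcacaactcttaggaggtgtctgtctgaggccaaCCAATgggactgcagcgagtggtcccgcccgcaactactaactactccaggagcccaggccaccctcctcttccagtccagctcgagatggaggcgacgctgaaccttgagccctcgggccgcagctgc
Both strands were searched for the PPARa element, a direct repeat of AGGTCA with 1 base between (AGGTCANAGGTCA), which 0.0396% of 32851 promoters of this length hold exactly and 3.86% hold with up to 2 mismatches. The search also covered the single repeat unit AGGTCA, held by 16.3%, the box TATAAA, held by 13.6%, and CCAAT, held by 37.4% and added to the search later than the others. The Acot1 window matches CCAAT, at -79 to -75 from the start, and none of the others. GC content is 52% in this window, against a median of 52.7% over all promoters.

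The libraries differed in ways that touch the values. Estimated depth was 13500000 to 13700000 reads. TPM, a transcript level per length scaled to a fixed total, was 1.25 times FPKM in L_Cyb5b_shCyb5a Refed, 1.23 times in WT_shNC Refed, 1.50 times in L_Cyb5b_shCyb5a Fasted and 1.30 times in WT_shNC Fasted. Changing from FPKM to TPM therefore moved log2 ratios by 0.21 in the fasted genotype comparison and by -0.27 in the feeding comparison of L_Cyb5b_shCyb5a, but by 0.026 in the refed genotype comparison and -0.087 in the feeding comparison of WT_shNC. The targeted genes matched the labels, with Cyb5a at 166 TPM in L_Cyb5b_shCyb5a Refed against 1274 TPM in WT_shNC Refed, and 207 TPM in L_Cyb5b_shCyb5a Fasted against 1686 TPM in WT_shNC Fasted. Cyb5b stood at 49.5 TPM in L_Cyb5b_shCyb5a Refed against 174 TPM in WT_shNC Refed, and at 27.4 TPM in L_Cyb5b_shCyb5a Fasted against 72.4 TPM in WT_shNC Fasted. Of 10 hepatocyte markers 0 are in the tables, so the labelled tissue could not be checked from them. Of 58 markers of other cell types 20 are listed, and their summed level was 171 TPM in L_Cyb5b_shCyb5a Refed, 113 TPM in WT_shNC Refed, 128 TPM in L_Cyb5b_shCyb5a Fasted and 286 TPM in WT_shNC Fasted. Unlisted markers are not in this sum, and most of those in it were listed for their genotype ratio in fasted liver.

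Cyp4a14, a hydroxylase of medium- and long-chain fatty acids, was the most abundant member in every library. Its level was 36.0 TPM (33.9 to 38.3) in L_Cyb5b_shCyb5a Refed, 9.84 TPM (8.73 to 11.0) in WT_shNC Refed, 4604 TPM in L_Cyb5b_shCyb5a Fasted and 3674 TPM in WT_shNC Fasted. Both fasted libraries were far above both refed ones, and among the 943 listed genes it ranked 6th by level in each fasted library but 119th in L_Cyb5b_shCyb5a Refed and 235th in WT_shNC Refed. In the fasted state this one gene made up 0.460% of all TPM in L_Cyb5b_shCyb5a and 0.367% in WT_shNC. The refed values rest on 1028 reads in L_Cyb5b_shCyb5a and 286 reads in WT_shNC, recovered from the authors' p-value and log2 ratio.

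Cyp4a31, its neighbour in the same P450 cluster, kept the same order of libraries at a lower level. It stood at 2.82 TPM (2.24 to 3.50) in L_Cyb5b_shCyb5a Refed, 0.73 TPM (0.452 to 1.12) in WT_shNC Refed, 72.6 TPM (69.2 to 76.1) in L_Cyb5b_shCyb5a Fasted and 61.0 TPM (58.1 to 64.1) in WT_shNC Fasted. The WT_shNC Refed value rests on 21 reads, the fewest behind any member value, against 82 reads in L_Cyb5b_shCyb5a Refed.

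Acot1, the thioesterase, was the second most abundant member in every library and ranked 27th of 943 in both fasted ones. Its level was 6.61 TPM (5.43 to 7.97) in L_Cyb5b_shCyb5a Refed, 3.05 TPM (2.26 to 4.02) in WT_shNC Refed, 362 TPM (352 to 373) in L_Cyb5b_shCyb5a Fasted and 411 TPM (401 to 421) in WT_shNC Fasted. It is the one member whose fasted level was higher in the WT_shNC library. The refed values rest on 110 reads in L_Cyb5b_shCyb5a and 50 in WT_shNC.

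Abcd2, the transporter of very-long-chain acyl-CoA, had the lowest level of the 4 in every library and a profile unlike the others. It stood at 1.61 TPM (1.33 to 1.93) in L_Cyb5b_shCyb5a Refed, 0.61 TPM (0.443 to 0.819) in WT_shNC Refed, 5.40 TPM (4.82 to 6.03) in L_Cyb5b_shCyb5a Fasted and 2.01 TPM (1.68 to 2.38) in WT_shNC Fasted. Its L_Cyb5b_shCyb5a Refed and WT_shNC Fasted levels had overlapping counting intervals, whereas for the other 3 members every fasted level lay far above every refed one. All 4 Abcd2 values rest on recovered reads, 115 in L_Cyb5b_shCyb5a Refed, 44 in WT_shNC Refed, 316 in L_Cyb5b_shCyb5a Fasted and 134 in WT_shNC Fasted.

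**Figure D2:**
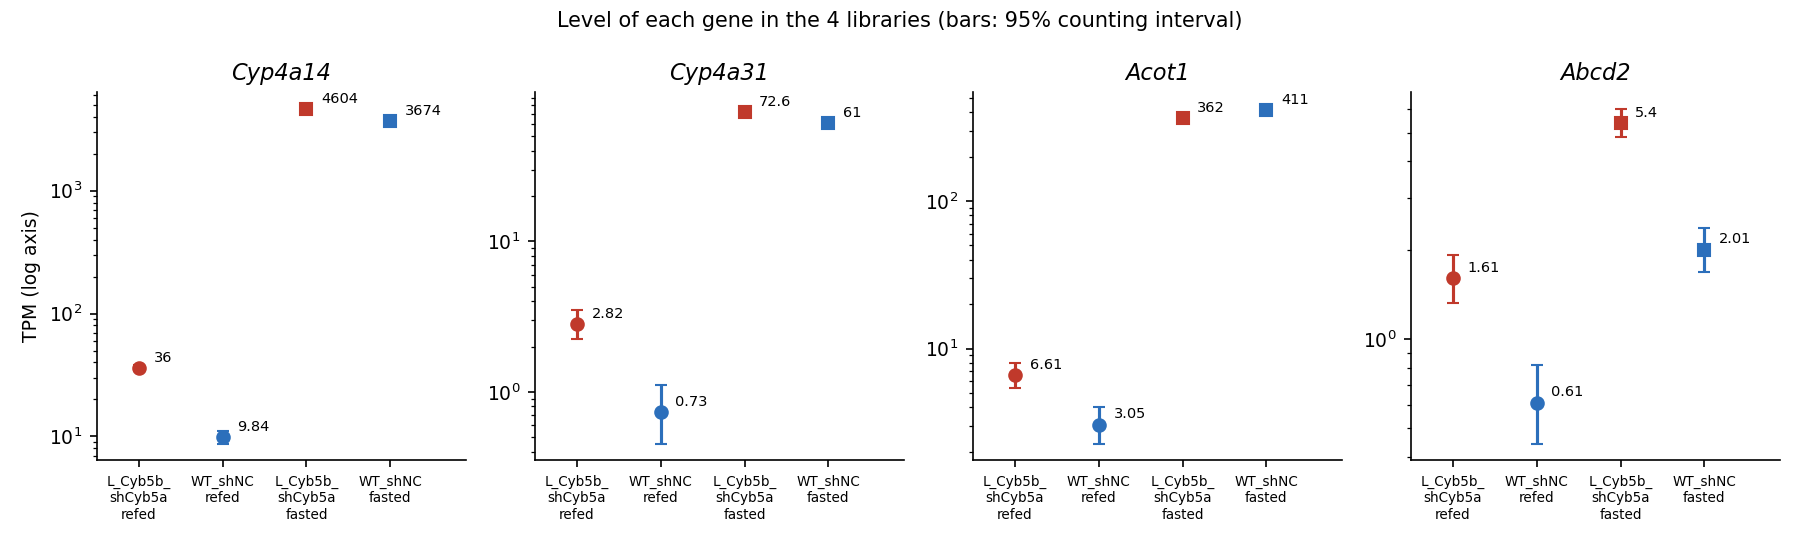
TPM (log axis, with its own range in each panel) of Cyp4a14, Cyp4a31, Acot1 and Abcd2 in the 4 libraries, with 95% counting intervals. Cyp4a14, Cyp4a31 and Acot1 have both fasted libraries (squares) far above both refed ones (circles), while Abcd2 spans 0.61 to 5.40 TPM with L_Cyb5b_shCyb5a (red) above WT_shNC (blue) in each state.

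In refed liver, the question is whether reduced Cyb5a and Cyb5b RNA goes with other levels of these genes once food is back. All 4 members were at least 2-fold higher in L_Cyb5b_shCyb5a Refed than in WT_shNC Refed, which being in the refed table and being chosen had fixed. Of all 943 listed genes 27.6% were at least 2-fold higher in this comparison and 7.21% at least 2-fold lower, and of the 284 genes listed for refed liver 75.7% were higher. The ratio of TPM was 3.86-fold for Cyp4a31 (2.37 to 6.57), 3.66-fold for Cyp4a14 (3.21 to 4.19), 2.64-fold for Abcd2 (1.85 to 3.83) and 2.17-fold for Acot1 (1.54 to 3.09). The interval of Cyp4a14 lay above that of Acot1, and the 2 Cyp4a genes had overlapping intervals. As log2 ratios, the 4 members had a median of 1.64, against 0.47 over the 924 listed genes with a finite value.

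The authors' deposited table gives log2 ratios of 1.97 for Cyp4a31, 1.85 for Cyp4a14, 1.39 for Abcd2 and 1.11 for Acot1 in refed liver. The smallest absolute log2 ratio in that deposited table is 1, so Acot1 is the member nearest to the limit of listing. In the authors' deposited table the log2 ratios of Cyp4a14 and Abcd2 equal those of whole reads within 1e-06 and those of Cyp4a31 and Acot1 do not, against 202 of 248 solved refed genes (81.5%) whose ratio does. In this pair the markers of liver endothelium that are listed, 9 of 12, summed to 84.6 TPM in L_Cyb5b_shCyb5a and 53.3 TPM in WT_shNC, and the 2 listed adipocyte markers of 10, Fabp4 and Pparg, to 42.0 TPM in L_Cyb5b_shCyb5a and 31.7 TPM in WT_shNC. Taken singly, Fabp4 stood at 36.3 TPM in L_Cyb5b_shCyb5a Refed and 29.3 TPM in WT_shNC Refed. Pparg stood at 5.72 TPM in L_Cyb5b_shCyb5a Refed and 2.4 TPM in WT_shNC Refed. Adiponectin (Adipoq) and perilipin 1 (Plin1), which define adipocytes, are not among the listed genes. The part of other cell types in the member ratios was not tested, and in bulk liver a change in RNA per cell and a change in the number of cells cannot be told apart.

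Of the 4 members only Abcd2 is listed for fasted liver, which had largely fixed that it alone would pass 2-fold in the fasted pair. Abcd2 was 2.69-fold higher in L_Cyb5b_shCyb5a Fasted than in WT_shNC Fasted (2.19 to 3.31), close to its ratio in the refed pair. It was the 1 member of 4 at least 2-fold higher, against 25.1% of the 943 listed genes and 29.6% of those in the fasted table, and the authors' deposited table gives it a log2 ratio of 1.24. Cyp4a14 had a TPM ratio of 1.25 (1.24 to 1.26) and Cyp4a31 one of 1.19 (1.11 to 1.27), with reads estimated from FPKM, whose own error these intervals leave out. On the FPKM scale those 2 ratios were 1.09 and 1.03, so nearly all of the fasted difference of Cyp4a31 depends on the choice of unit. Acot1 was 1.14-fold lower in L_Cyb5b_shCyb5a Fasted in TPM, a ratio of 0.881 (0.849 to 0.915), and its ratio was 0.764 in FPKM. For Abcd2 the FPKM ratio was 2.33.

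In this pair the median log2 TPM ratio of the members was 0.29, against -0.86 over the 923 listed genes with a finite value. Of all 943 listed genes 36.6% were at least 2-fold lower in L_Cyb5b_shCyb5a Fasted. That share depends on the unit, with 345 genes lower in TPM and 513 in FPKM. Of the 4 members 0 were, which the listing had also largely fixed. The summed level of the 20 listed markers of other cell types was 128 TPM in L_Cyb5b_shCyb5a and 286 TPM in WT_shNC, the opposite order to the refed pair, and so was that of the endothelial ones alone, with 76.8 TPM in L_Cyb5b_shCyb5a and 167 TPM in WT_shNC. Single markers did not all follow the sum, and Pparg stood at 5.22 TPM in L_Cyb5b_shCyb5a and 3.16 TPM in WT_shNC. Of the 9 listed endothelial markers 8 are listed for fasted liver, as are all 4 listed lymphocyte ones. Listing had thus largely fixed a large difference of these markers in this pair, and unlisted markers are not in the sums. The part of these markers' cells in the member ratios was not tested.

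**Figure D3:**
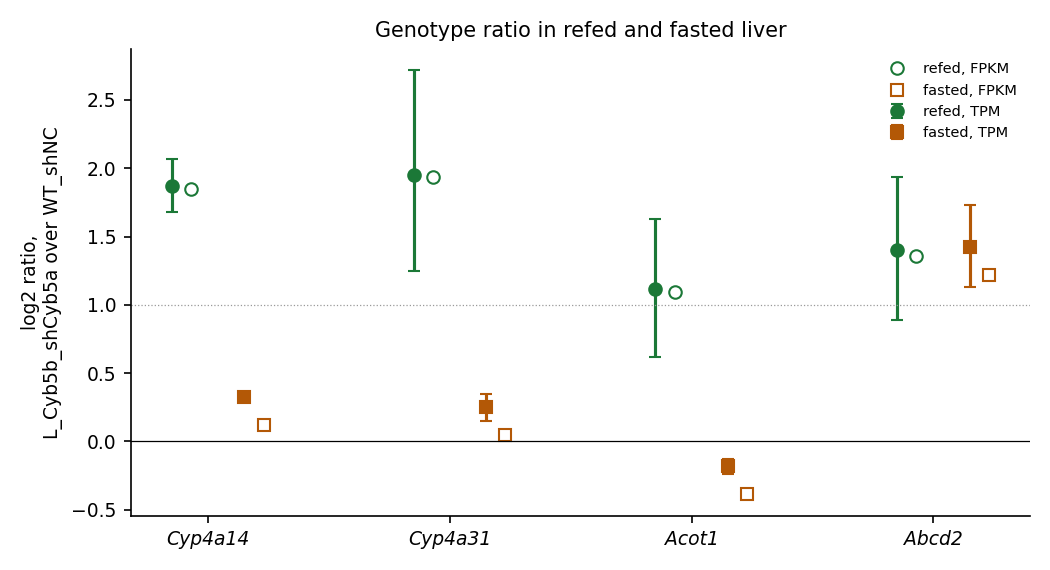
Log2 ratio of L_Cyb5b_shCyb5a over WT_shNC (y axis) for each member (x axis) in refed (green circles) and fasted liver (brown squares), in TPM (filled, with 95% counting intervals) and in FPKM (open). The dotted line is the 2-fold limit. All 4 refed TPM values lie above it, from 1.12 to 1.95, and in the fasted state only Abcd2 does, at 1.43 in TPM and 1.22 in FPKM. Being listed or not for each state had largely fixed which values pass this limit.

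On refeeding, all 4 members were at least 2-fold lower than in the fasted state in both genotypes, a property they were chosen for. In L_Cyb5b_shCyb5a 18% of the 943 listed genes were at least 2-fold lower and 23.3% higher in the refed library, and in WT_shNC 44.8% were lower and 17% higher. In L_Cyb5b_shCyb5a, Cyp4a14 was 128-fold lower in the refed library (120 to 136), Acot1 54.8-fold (45.4 to 66.8), Cyp4a31 25.7-fold (20.6 to 32.5) and Abcd2 3.35-fold (2.70 to 4.19). In WT_shNC, Cyp4a14 was 373-fold lower in the refed library (332 to 421), Acot1 135-fold (102 to 182), Cyp4a31 83.6-fold (54.5 to 135) and Abcd2 3.30-fold (2.33 to 4.74). The order of the 4 was the same in each genotype, and the intervals of Acot1 and Cyp4a31 overlapped in WT_shNC but not in L_Cyb5b_shCyb5a.

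Among listed genes of at least 1 TPM in the fasted library, the refed over fasted ratio of Cyp4a14 was the 2nd lowest of 721 in L_Cyb5b_shCyb5a and the 3rd lowest of 781 in WT_shNC. Acot1 was 3rd in L_Cyb5b_shCyb5a and 6th in WT_shNC, Cyp4a31 was 7th in L_Cyb5b_shCyb5a and 8th in WT_shNC, and Abcd2 was 85th in L_Cyb5b_shCyb5a and 164th in WT_shNC. The median log2 ratio of the members was -5.23 in L_Cyb5b_shCyb5a, against 0.26 over the listed genes, and -6.73 in WT_shNC, against -0.84. For Abcd2 the authors' deposited table gives a log2 ratio of -1.61 for refed over fasted WT_shNC.

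For 3 of the members the share of the fasted level that remained after refeeding was over 2-fold higher in L_Cyb5b_shCyb5a than in WT_shNC, by 3.25-fold for Cyp4a31, 2.92-fold for Cyp4a14 and 2.46-fold for Acot1, and for Abcd2 the quotient was 0.982. The refed level was 0.783% of the fasted one for Cyp4a14 in L_Cyb5b_shCyb5a and 0.268% in WT_shNC. For Cyp4a31 it was 3.88% in L_Cyb5b_shCyb5a and 1.20% in WT_shNC, and for Acot1 1.82% in L_Cyb5b_shCyb5a and 0.742% in WT_shNC. For Abcd2 it was 29.8% in L_Cyb5b_shCyb5a and 30.3% in WT_shNC. As differences of log2 TPM ratios, L_Cyb5b_shCyb5a minus WT_shNC, these come to 1.70 for Cyp4a31, 1.55 for Cyp4a14, 1.30 for Acot1 and -0.026 for Abcd2, and in FPKM to 1.89, 1.73, 1.48 and 0.14 in the same order. Each difference equals the member's refed genotype log2 ratio minus its fasted one, so it is no separate evidence, and with 1 library a group it could not be tested. Over all listed genes the median log2 TPM ratio of refed over fasted was also higher in L_Cyb5b_shCyb5a, at 0.26 against -0.84 in WT_shNC. Among the listed genes a difference in this direction was therefore not particular to these 3 members. Genes were listed by genotype ratio, and 503 of the 722 listed for fasted liver were lower in L_Cyb5b_shCyb5a Fasted. The medians thus depend on the listing and do not show how common such a difference is in liver. The absolute amounts are small beside the fasted levels, since the refed excess of Cyp4a14 in L_Cyb5b_shCyb5a over WT_shNC was 26.2 TPM and the fasted one 931 TPM.

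**Figure D4:**
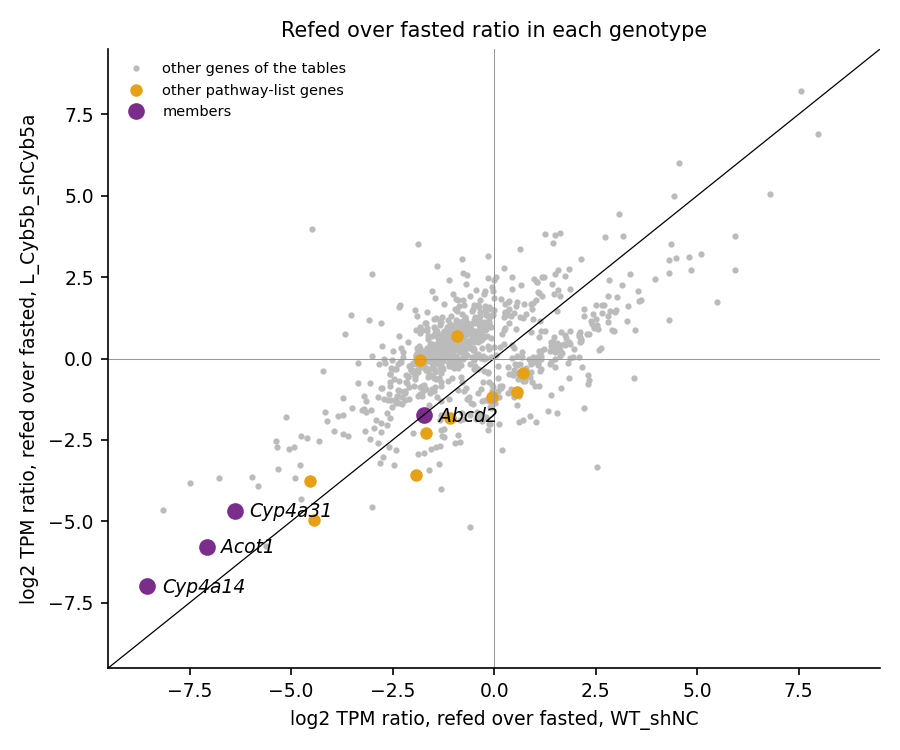
Log2 TPM ratio of refed over fasted in L_Cyb5b_shCyb5a (y axis) and in WT_shNC (x axis) for the listed genes (grey), other genes of the pathway lists (orange) and the 4 members (purple), with the line of equal ratios. Cyp4a14, Acot1 and Cyp4a31 sit at the low end of both axes and above the line, at differences of 1.30 to 1.70, and Abcd2 sits on it. The median of the listed genes, 0.26 in L_Cyb5b_shCyb5a and -0.84 in WT_shNC, also lies above the line.

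The members also differed in their proportions. Cyp4a14 stood 12.8 times above Cyp4a31 in L_Cyb5b_shCyb5a Refed and 13.5 times in WT_shNC Refed, and 63.4 times above it in L_Cyb5b_shCyb5a Fasted and 60.2 times in WT_shNC Fasted. The ratio of these 2 P450 genes thus differed more between feeding states than between genotypes. Cyp4a14 over Acot1, in TPM, was 5.45 in L_Cyb5b_shCyb5a Refed against 3.23 in WT_shNC Refed, and 12.7 in L_Cyb5b_shCyb5a Fasted against 8.93 in WT_shNC Fasted, higher in the targeted genotype in each state. Acot1 over Cyp4a31 was 2.34 in L_Cyb5b_shCyb5a Refed against 4.18 in WT_shNC Refed, and 4.99 in L_Cyb5b_shCyb5a Fasted against 6.74 in WT_shNC Fasted. The WT_shNC Refed value rests on 50 Acot1 and 21 Cyp4a31 reads, and the refed genotype folds of these genes have overlapping counting intervals. All these proportions restate the levels above and are given without intervals.

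Profiles were compared over the 4 libraries as log2(TPM + 1) centred on each gene's mean, by Euclidean distance, a description over 4 points. Acot1 was the gene nearest to Cyp4a14 (1.71), followed by Cyp4a31 (2.999) and Ppp1r3g, a glycogen-targeting subunit of protein phosphatase 1 (3.07). Nearest to Cyp4a31 were the leptin receptor Lepr (0.850), the metallothionein Mt2 (0.943) and Ppp1r3g (1.15). Nearest to Acot1 were Ppp1r3g (1.45), Cyp4a31 (1.45) and Mt2 (1.55). Abcd2 was nearest to the stress-induced Sesn2 (0.196), the glucuronosyltransferase Ugt1a9 (0.201) and the phosphatase Phospho1 (0.212), and lay 6.65 from Cyp4a14, 5.11 from Acot1 and 3.68 from Cyp4a31. With 1 TPM added, low genes are drawn together, and with 0.1 TPM added 1 of the 3 genes nearest to Abcd2 stayed among its nearest 3.

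Few other genes of these pathways reached the tables. Of 153 genes in 7 lists of fatty acid oxidation and its regulation, 15 are listed, the 4 members and 11 others. Nothing is said of genes outside the tables, which were not analysed here. The thioesterase list has 1 of 18 genes listed, Acot1, and the peroxisomal ABC transporter list 1 of 4, Abcd2. Of 21 peroxins and peroxisome division genes, and of 22 genes of mitochondrial oxidation and ketogenesis, 0 are listed. Of 27 genes of peroxisomal fatty acid oxidation 1 is listed, Acox2, the oxidase of branched-chain and bile acid side chains. In TPM, 2 of the 11 others were at least 2-fold higher and 3 lower in L_Cyb5b_shCyb5a Refed than in WT_shNC Refed. Of all 943 listed genes 27.6% were higher and 7.21% lower in that pair. In the fasted pair 5 of the 11 were higher and 1 lower, against 25.1% and 36.6% of all listed genes. As for the members, being listed for a state had largely fixed which of these genes pass 2-fold in it. On refeeding 7 of the 11 were lower and 0 higher in L_Cyb5b_shCyb5a, against 18% and 23.3% of all listed genes. In WT_shNC 6 of the 11 were lower and 1 higher on refeeding, against 44.8% and 17%. The 1 higher gene was Mogat1, at 0.29 TPM in WT_shNC Refed and 0 TPM in WT_shNC Fasted. Mogat1 is counted as higher in the fasted pair through the same 0.

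In the omega oxidation and Cyp4 list, 4 of 24 genes are listed, the 2 members with Cyp4b1 and Cyp4f16. Cyp4b1, a P450 that in rodents acts on fatty acids and some foreign compounds and lies beside the cluster on chromosome 4, stood at 5.57 TPM in L_Cyb5b_shCyb5a Refed, 2.99 TPM in WT_shNC Refed, 5.71 TPM in L_Cyb5b_shCyb5a Fasted and 10.5 TPM in WT_shNC Fasted. It was 1.86-fold higher (1.36 to 2.57) in the refed pair and 1.84-fold lower (1.44 to 2.36) in the fasted pair, so its genotype ratio changed direction with feeding. Cyp4f16 stood at 2.38 TPM in L_Cyb5b_shCyb5a Refed, 1.01 TPM in WT_shNC Refed, 1.46 TPM in L_Cyb5b_shCyb5a Fasted and 1.89 TPM in WT_shNC Fasted. It was 2.36-fold higher (1.46 to 3.92) in L_Cyb5b_shCyb5a Refed. Neither had the large fasted excess of the Cyp4a genes.

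Acox2 stood at 68.1 TPM in L_Cyb5b_shCyb5a Refed, 63.2 TPM in WT_shNC Refed, 92.3 TPM in L_Cyb5b_shCyb5a Fasted and 38.9 TPM in WT_shNC Fasted. Like Abcd2 it was over 2-fold higher in the fasted pair (2.38-fold, 2.21 to 2.56), but unlike Abcd2 its refed ratio was 1.08 (1.01 to 1.15). Acox2 is listed for fasted liver only and Abcd2 for both states, which had largely fixed this contrast.

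Among other PPARa targets and regulators 8 of 38 genes are listed. Fgf21, a fasting hormone made by liver, was 2.83-fold lower in the refed pair (1.60 to 5.24), at 1.97 TPM in L_Cyb5b_shCyb5a and 5.57 TPM in WT_shNC, the opposite direction to the 4 members. Its fasted levels were 23.7 TPM in L_Cyb5b_shCyb5a and 21.3 TPM in WT_shNC, a ratio of 1.11 (0.894 to 1.39). Plin4, a lipid droplet coat protein, was also lower in the refed pair, at 0.26 TPM in L_Cyb5b_shCyb5a and 0.83 TPM in WT_shNC, and lower in the fasted pair, at 8.02 TPM in L_Cyb5b_shCyb5a and 18.1 TPM in WT_shNC. Its feeding difference was among the largest of the other pathway genes, 30.8-fold lower on refeeding in L_Cyb5b_shCyb5a (19.96 to 50.3) and 21.8-fold in WT_shNC (16.98 to 28.4). Lpin1, a phosphatidate phosphatase, was 2.09-fold lower in L_Cyb5b_shCyb5a Refed (1.96 to 2.23), at 19.6 TPM against 41.0 TPM in WT_shNC Refed.

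The fatty acid transporter Cd36 stood at 15.3 TPM in L_Cyb5b_shCyb5a Refed, 10.2 TPM in WT_shNC Refed, 54.1 TPM in L_Cyb5b_shCyb5a Fasted and 21.8 TPM in WT_shNC Fasted, higher in L_Cyb5b_shCyb5a in both states as Abcd2 was. Its ratio was 2.49-fold in the fasted pair (2.27 to 2.73) and 1.50-fold in the refed pair (1.31 to 1.72). G0s2, an inhibitor of the lipase Pnpla2, was at 18.4 TPM in L_Cyb5b_shCyb5a Refed, 20.4 TPM in WT_shNC Refed, 248 TPM in L_Cyb5b_shCyb5a Fasted and 470 TPM in WT_shNC Fasted, and was 13.5-fold lower on refeeding in L_Cyb5b_shCyb5a and 23.0-fold in WT_shNC. The sterol hydroxylase Cyp8b1 was 2.98-fold higher in the fasted pair (2.87 to 3.10) and the glycerol phosphate dehydrogenase Gpd1 2.37-fold (2.26 to 2.48), and their refed ratios were 0.995 and 1.08. Both are listed for fasted liver only, which had largely fixed that contrast. Mogat1, a monoacylglycerol acyltransferase, stood at 0.78 TPM in L_Cyb5b_shCyb5a Refed, 0.29 TPM in WT_shNC Refed and 1.32 TPM in L_Cyb5b_shCyb5a Fasted, and is listed at 0 in WT_shNC Fasted. The pathway genes in the tables thus did not share one direction, and those over 2-fold higher in the refed pair were the 4 members, Cyp4f16 and Mogat1.

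**Figure D5:**
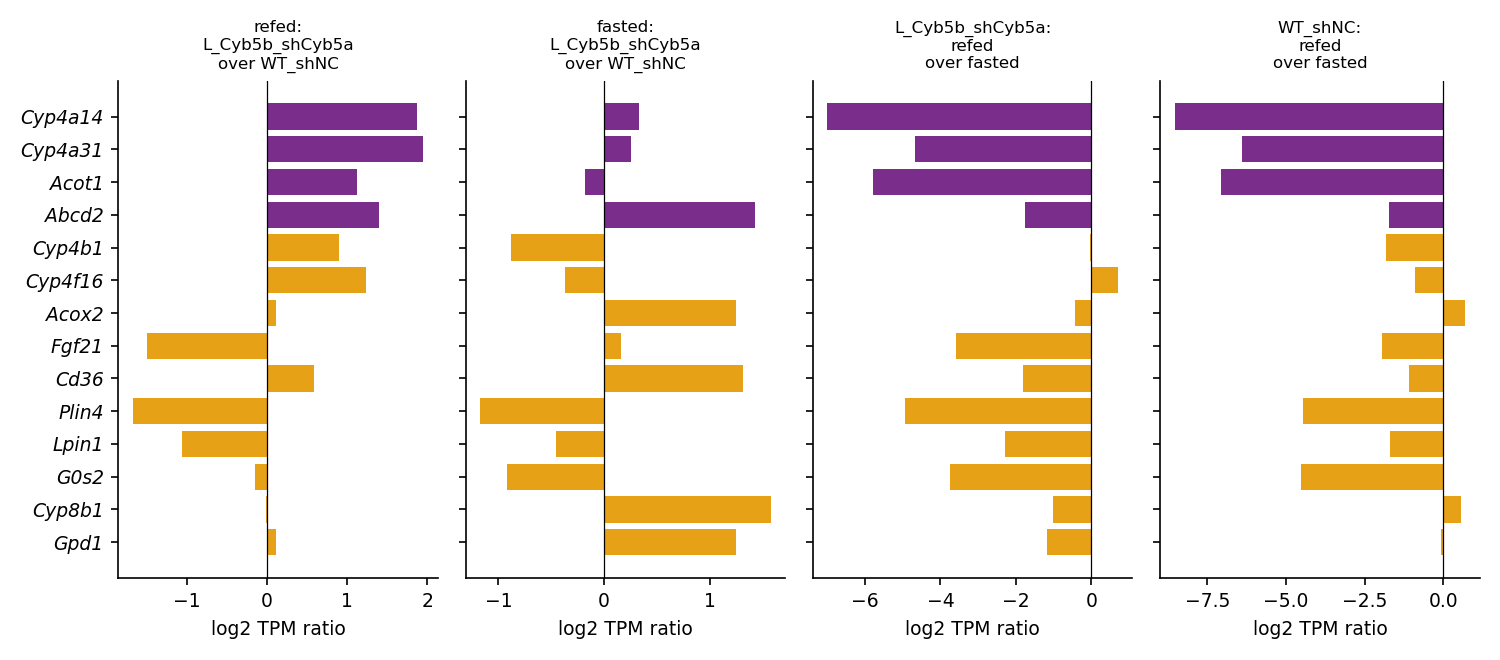
Log2 TPM ratios (x axes) of the 4 members (purple) and of 10 listed genes of the pathway lists (orange), for the genotype comparison in refed and in fasted liver and for refed over fasted in each genotype. Mogat1, listed at 0 in WT_shNC Fasted, is not drawn. In the refed genotype panel the bars above 1 are those of the 4 members and of Cyp4f16, at 1.24.

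The KEGG terms in the authors' deposited tables group the members differently. "Fatty acid degradation" holds 3 listed genes, Cyp4a14, Cyp4a31 and Acat2, and "PPAR signaling pathway" holds 12, of which these 2 are members. Of the 10 others with that term, 3 were at least 2-fold higher and 1 lower in L_Cyb5b_shCyb5a Refed, and 5 were higher and 3 lower in L_Cyb5b_shCyb5a Fasted, each against WT_shNC of the same state. Of all 943 listed genes 27.6% were higher and 7.21% lower in the refed pair, and 25.1% higher and 36.6% lower in the fasted pair. The 2 Cyp4a genes are also 2 of the 12 listed genes under "Arachidonic acid metabolism" and 2 of the 21 under "Retinol metabolism", since one P450 family takes part in several of these maps.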

How the data were processed

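Per the file headers, the deposited tables give TPM and FPKM made by the authors for each of 4 liver libraries, the authors' log2 ratio of L_Cyb5b_shCyb5a over WT_shNC, and the authors' p-value, which compares the reads of 2 libraries and was not used as a test. The columns headed L_A were taken as L_Cyb5b_shCyb5a. TPM and FPKM carry 2 decimals. The tables hold genes with an absolute log2 ratio of at least 1 and a p-value of at most 2.43e-04 (fasted) or 1.46e-04 (refed). No aligner, build or read length is given in the sources used here. Gene order and the promoter are from RefSeq and transcripts from GENCODE M21. Per the labels, TRIzol was used to extract the RNA.

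Ratios are of TPM with no pseudocount, and a gene at 0 TPM in only 1 library of a pair was counted as past 2-fold. Whole reads were recovered where the authors' p-value, within a relative tolerance of 0.001, matched a doubled Audic-Claverie tail, in 683 of 722 fasted and 248 of 284 refed genes. Fasted reads of Cyp4a14, Cyp4a31 and Acot1 were estimated from their refed reads, FPKM and relative depth. Unrecovered reads of other pathway genes except Mogat1 were estimated likewise from another library. Among them were Cyp4b1, Acox2, Cd36, Cyp8b1 and Gpd1 in L_Cyb5b_shCyb5a Refed, and Fgf21, Cyp4f16 and Lpin1 in both fasted libraries. Others were Cyp8b1 in L_Cyb5b_shCyb5a Fasted and G0s2 in both refed libraries. Intervals from estimated reads leave out the error of the estimate. In 46 genes with reads in both states, fasted reads estimated from refed ones had a median error of 0.406% and a largest error of 14.0%. Level intervals are exact Poisson and ratio intervals Clopper-Pearson, both at 95% and for counting error only, and PCR copies of a molecule are counted as separate reads where no molecular identifier is used. Library depth was estimated from recovered reads, FPKM and GENCODE lengths. The solving step was tested on simulated data. Alternatives were FPKM, a pseudocount of 1 TPM (0.1 TPM for profiles), a filter at 1 TPM and the authors' ratio. Python 3.11.15, numpy 2.4.6, scipy 1.17.1 and pandas 2.3.3 were used.

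The members and the gene lists were chosen with earlier results of these data known. Genes named are the members, the listed genes of the pathway lists and the 3 genes nearest to each member in profile, besides the targeted genes, markers and sequence relatives. Acat2 is named as the only other gene of its term.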

Additional observations from a re-analysis of the deposited data

Results flagged for a closer look

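Acot1 had genotype ratios of opposite direction in the 2 feeding states, with a log2 TPM ratio of L_Cyb5b_shCyb5a over WT_shNC of 1.12 in refed and -0.18 in fasted liver. The fasted value was -0.39 in FPKM, and 33.6% of the gene's windows of 50 bases recur in other genes. Cyp4b1 also had opposite directions, with a log2 TPM ratio of 0.90 in refed and -0.88 in fasted liver. With 1 library a group, the difference between the states was not tested for either gene.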

How the results depend on the processing

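Of 102 recomputed values 79 kept within the counting interval (counts within 1.5 times) and 23 moved beyond it. The one value whose sign changed was the difference of the log2 refed over fasted ratios of Abcd2, L_Cyb5b_shCyb5a minus WT_shNC, at -0.026 in TPM, 0.14 in FPKM and -0.39 with 1 TPM added, all within its counting interval. The authors' ratio (6 values) and the filter at 1 TPM (16 values) moved none. In FPKM the log2 genotype ratio in fasted liver was 0.12 for Cyp4a14, 0.044 for Cyp4a31 and -0.39 for Acot1, the log2 refed over fasted ratio of Cyp4a14 in L_Cyb5b_shCyb5a was -6.73, and 3 of the other pathway genes were at least 2-fold lower in fasted liver. The count of listed genes at least 2-fold lower in the fasted genotype comparison was 513 in FPKM and 345 in TPM, just within 1.5 times. With 1 TPM added, which shrinks the ratio of low genes by its construction, the refed genotype log2 ratio was 1.14 for Cyp4a31 and 0.70 for Abcd2, and the fasted one 1.09 for Abcd2. The refed one of Acot1 was 0.91, within its counting interval but, like that of Abcd2, under the 2-fold limit. The log2 refed over fasted ratio in L_Cyb5b_shCyb5a was then -4.27 for Cyp4a31 and -1.29 for Abcd2, and in WT_shNC -5.16 for Cyp4a31, -6.67 for Acot1 and -0.90 for Abcd2. The difference of these ratios between genotypes, L_Cyb5b_shCyb5a minus WT_shNC, was 0.90 for Cyp4a31. Counts of listed genes past 2-fold with 1 TPM added were 84 higher and 44 lower in the refed and 152 higher and 128 lower in the fasted genotype comparison, 121 higher in refed L_Cyb5b_shCyb5a and 238 lower in refed WT_shNC, each against the fasted library. Of the other pathway genes 0 were then higher in the refed genotype comparison and 0 in refed against fasted WT_shNC. No paired analysis was possible because each group has 1 library, and for the same reason no replicate could be left out. Depth limits Cyp4a31 most, with 21 reads in WT_shNC Refed.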
